A study of Rattus norvegicus with 10 samples.

Results

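miR-140 is a microRNA best known from cartilage, and its hairpin gives a pair of mature products, rno-miR-140-5p and rno-miR-140-3p. Both were taken from the read counts of every small RNA library by name, as the entries that begin rno-miR-140-, and they are 2 of the 723 mature rat miRNAs listed there. The tissue was not cartilage: the labels call it muscle tissue under the epidermis, and the methods of the study describe subcutaneous tissue with its muscle around the stimulated points of the back. All rats were female Wistar rats with collagen-induced arthritis (CIA), a model raised by immunization with bovine type II collagen in Freund's adjuvant, and no healthy group is part of the data used here. CIA_B is the group before therapy. MS_E and MS_A received mechanical stimulation, a needle inserted and rotated at points of the lower back and below the knee (the labels write AP), and were sampled at 1 h and at 34 days. PLA_E and PLA_A received a placebo, an injection of 0.9% saline into the peritoneum, and were sampled at the same times. Each of the 5 groups has 2 libraries, and the labels do not say that these came from separate animals, so the tests measure the spread between libraries, which may be technical.

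The libraries held between 1513799 and 8926170 reads on miRNAs, CIA_B replicate 1 being the shallowest and MS_E replicate 1 the deepest. Levels are given in cpm, counts scaled to the reads on miRNAs of each library and then between libraries by the trimmed mean of M values (TMM). The 4 skeletal muscle miRNAs miR-1-3p, miR-206-3p, miR-133a-3p and miR-133b-3p were abundant in every library, at a summed 83910 to 268530 cpm. Within each group the libraries stood apart in miR-1-3p, which reached 80416 to 122990 cpm in CIA_B replicate 1, MS_E replicate 2, PLA_E replicate 1, MS_A replicate 2 and PLA_A replicate 1, and 10117 to 15567 cpm in their partners. miR-206-3p, miR-133b-3p and the sum of the 4 were higher on the same side in 5 of 5 groups, and miR-133a-3p in 3 of 5 with a mean log2 difference of -0.052. This division cuts across all groups.

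MicroRNAs pair with messenger RNAs mainly through their seed, bases 2 to 8 from the 5′ end, and lower the stability and translation of the RNAs they pair with. miR-140 is transcribed with Wwp2, a ubiquitin ligase gene, and is abundant in chondrocytes, where the cartilage regulator Sox9 drives this locus. Mice without miR-140 have a shortened skeleton and lose articular cartilage early. Among the RNAs known to be repressed by the 5p arm is that of Adamts5, a protease that cuts the cartilage proteoglycan aggrecan.

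The sequences of both arms and of their hairpin are shown because the arms behaved differently, and because the seeds are what separates their targets. They were copied from RefSeq, capitals marking the seed in the mature arms and the mature arms in the hairpin.
rno-miR-140-5p: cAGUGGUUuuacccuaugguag
rno-miR-140-3p: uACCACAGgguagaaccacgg
rno-mir-140: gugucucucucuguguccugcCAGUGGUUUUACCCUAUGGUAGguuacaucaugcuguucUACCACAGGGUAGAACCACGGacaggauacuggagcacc
In the RefSeq assembly GRCr8 the hairpin of 99 bases lies on the plus strand at chr19:52375293-52375391, within the span of Wwp2. The 5p arm of 22 bases occupies chr19:52375314-52375335 and the 3p arm of 21 bases occupies chr19:52375353-52375373. The study mapped its reads to an older build, rn4, for which no positions are given here. Laid against each other without gaps, the arms formed 18 Watson-Crick pairs, 1 G-U pair and 2 mismatches over 21 facing bases. The seeds AGUGGUU and ACCACAG were each found in no other of the 693 rat mature miRNAs in the RefSeq table, so neither arm shares a seed family with another miRNA there.

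miR-140-3p was the abundant arm and its level after TMM scaling moved little. Before that scaling it was less even: MS_A replicate 1 held 1548 of 6244356 reads on miRNAs and PLA_A replicate 1 held 2037 of 3050255. In the order of the replicate numbers, the CIA_B libraries held 329 and 521 cpm, MS_E 455 and 327, PLA_E 409 and 436, MS_A 367 and 301, and PLA_A 507 and 353. The highest library, CIA_B replicate 2, was 1.73-fold above the lowest, MS_A replicate 2, and the groups overlapped except MS_A and PLA_E, between which 7.24% of all 359 miRNAs likewise lay lower in both MS_A libraries. As group means ± SD (n = 2), miR-140-3p stood at 430 ± 109 cpm in PLA_A, 425 ± 136 in CIA_B, 422 ± 19.6 in PLA_E, 391 ± 90.5 in MS_E and 334 ± 46.6 in MS_A. Every step between neighbours in this order was smaller than the larger of the SDs on either side of it.

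miR-140-5p, the arm known to repress Adamts5, was far scarcer and far more uneven. The CIA_B libraries held 8.66 and 10.9 cpm, MS_E 8.96 and 20.1, PLA_E 23.7 and 8.55, MS_A 12.1 and 19.4, and PLA_A 41.6 and 10.6. In MS_E, PLA_E, MS_A and PLA_A 1 library lay well above the other, and PLA_A replicate 1 stood highest of all. The group means ± SD (n = 2) ran from 26.1 ± 21.9 cpm in PLA_A over 16.1 ± 10.7 in PLA_E, 15.7 ± 5.15 in MS_A and 14.5 ± 7.91 in MS_E to 9.77 ± 1.58 in CIA_B. No neighbours in this order differed by more than the larger of their SDs. Counting error alone did not span the range: the lowest high library, MS_A replicate 2, rested on 159 reads (95% Poisson interval 16.5 to 22.6 cpm) and PLA_E replicate 2 on 31 reads (5.81 to 12.1 cpm). CIA_B replicate 1 held 10 reads of this arm, an interval of 4.15 to 15.9 cpm, and is the least precise value. Such intervals cover counting error only.

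**Figure D1:**
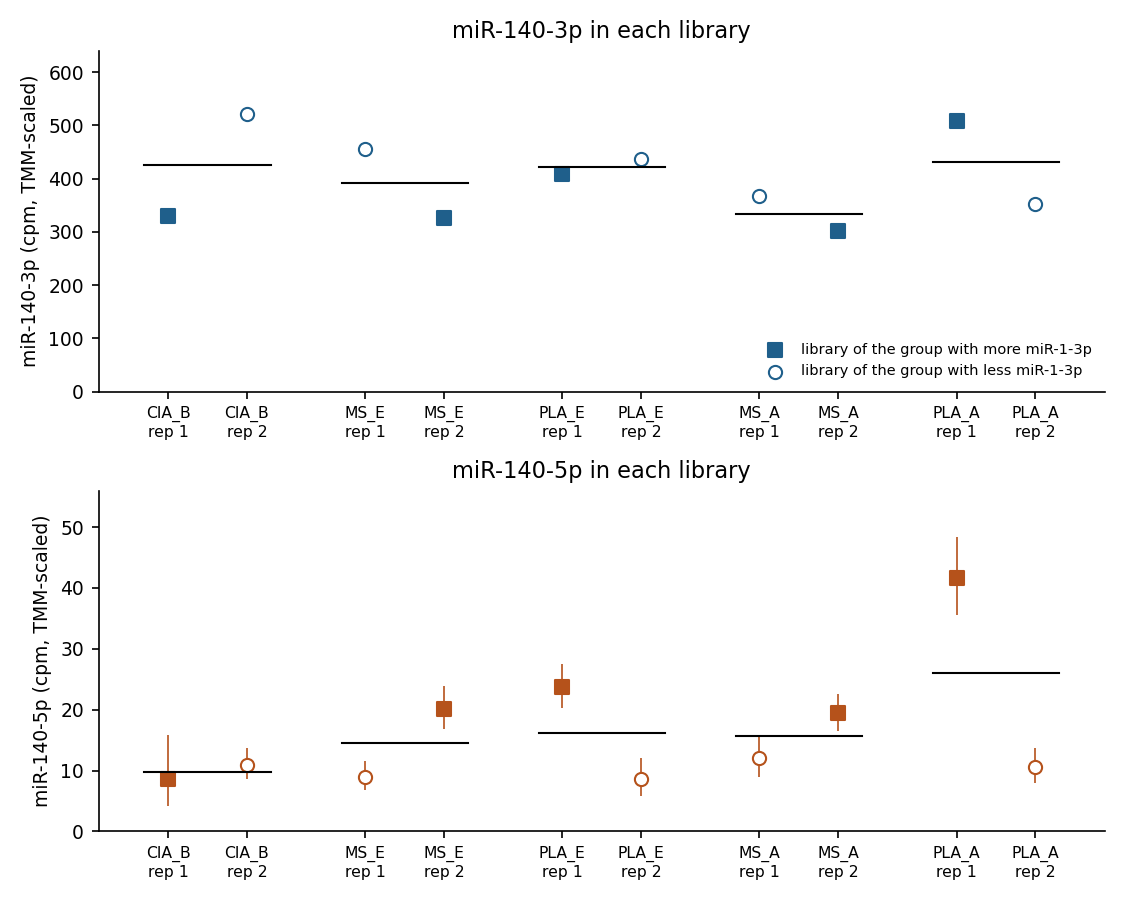
Level of miR-140-3p (top) and miR-140-5p (bottom) in cpm in each of the 10 libraries, 2 per group. Filled squares are the library of the group with more miR-1-3p, open circles the other, black lines the group means, and vertical bars for miR-140-5p the 95% Poisson interval. miR-140-3p stayed between 301 and 521 cpm, whereas miR-140-5p ran from 8.55 to 41.6 cpm with 4 of the 5 filled squares at 19.4 cpm or more.

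The spread of each arm in TMM-scaled cpm was set against that of all miRNAs, and the spread under other scaling was not computed. Over the 359 miRNAs that reached 1 cpm in at least 5 libraries, the SD of log2 cpm over the 10 libraries had a median of 0.66. miR-140-3p had an SD of 0.28, and 17 of the 359 miRNAs (4.74%) had a smaller one. miR-140-5p had an SD of 0.76, and 217 miRNAs (60.4%) were steadier. The 3p arm ranked 68 and the 5p arm 185 of 359 by mean level, so the arms also differ in counting error, the 5p arm resting on 10 to 177 reads a library and the 3p arm on 380 to 3543.

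**Figure D2:**
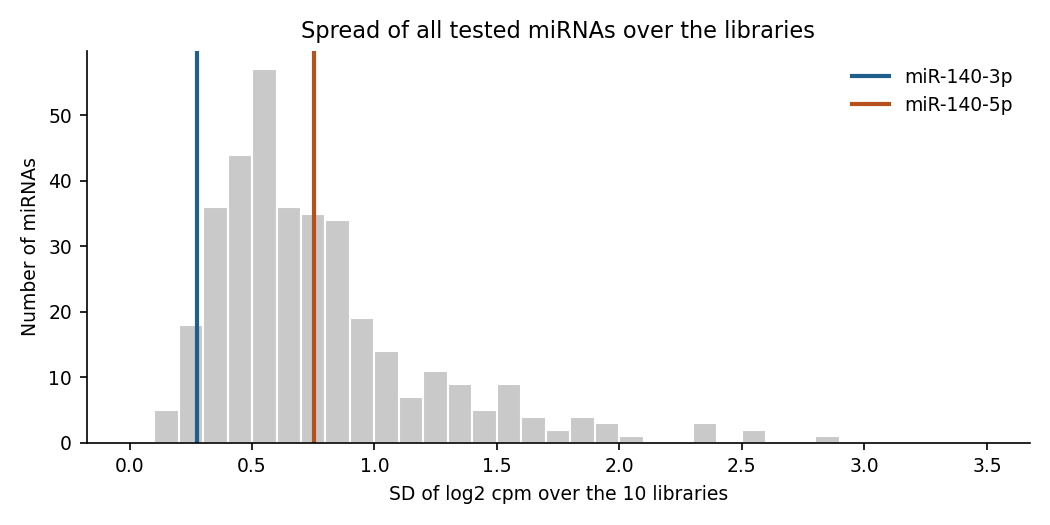
Histogram of the SD of log2 cpm over the 10 libraries for the 359 miRNAs tested, with vertical lines at miR-140-3p (0.28) and miR-140-5p (0.76). The 3p arm lies in the steady tail and the 5p arm just above the middle of the distribution.

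Within the hairpin, the reads divided in favour of the 3p arm in every library. For each read of miR-140-5p CIA_B held 38.0 and 47.9 reads of miR-140-3p, MS_E 50.8 and 16.2, PLA_E 17.2 and 51.0, MS_A 30.4 and 15.5, and PLA_A 12.2 and 33.4. This ratio needs no scaling between libraries, and it was highest in PLA_E replicate 2 and lowest in PLA_A replicate 1. As a share of both arms, the 5p arm took 1.92% in PLA_E replicate 2 and 7.58% in PLA_A replicate 1. The 3p share of the latter was 92.4% (95% Wilson interval 91.2 to 93.5%) and that of CIA_B replicate 1, the shallowest, 97.4% (95.3 to 98.6%).

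miR-140 was among the more 3p-sided hairpins. Among the 101 hairpins with both arms tested, the mean log2 ratio of 3p to 5p had a median of -0.98 and 45 held more 3p, while miR-140, at 4.77, ranked 13 from the most 3p-sided. The steadiness of that ratio was ordinary: its SD over libraries was 0.78 against a median of 0.71, rank 43 of 101. In all 5 groups the library with more miR-1-3p had the lower 3p to 5p ratio, by a mean of 1.20 on the log2 scale. In CIA_B this lay within counting error, as the 95% Wilson intervals of the 3p share overlapped (95.3 to 98.6% and 97.4 to 98.4%). A ratio lower in all 5 groups was found in 21 of the 101 hairpins and a ratio higher in all 5 in 15, and miR-140 ranked 26 of 101 by the size of its mean difference, whatever the direction. Of 7 further hairpins from a list of miRNAs known in cartilage, 3 (miR-145, miR-22 and miR-29a) also had the lower ratio in 5 of 5 groups and miR-27b in 4, miR-675 and miR-483 were higher in 3, and miR-455 was higher in 5, by a mean of 2.67.

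**Figure D3:**
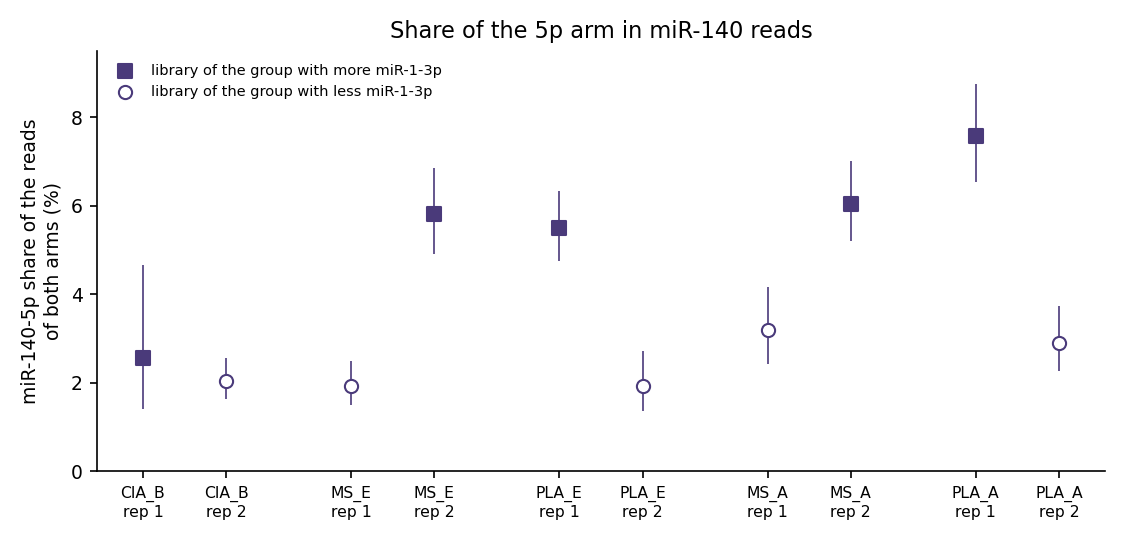
Share of miR-140-5p in the reads of both arms (percent) in each library, with 95% Wilson intervals as vertical bars, filled squares for the library of the group with more miR-1-3p and open circles for the other. Every filled square lies above the open circle of its own group, with overlapping intervals in CIA_B. The shares run from 1.92% at the lowest to 7.58% at the highest.

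The first question of the design is whether either therapy moved the miRNAs, and for the arm ratio no pooled comparison was distinguishable from the spread between libraries. The log2 ratio was 4.64 ± 0.81 (SD, n = 4) under mechanical stimulation and 4.61 ± 0.93 (n = 4) under placebo, a difference of 0.030 (exact two-sided permutation test, p = 1.0). At 34 days it was 4.39 ± 0.71 and at 1 h 4.87 ± 0.93 (n = 4 each), a difference of -0.48 (exact permutation test, p = 0.457, 0.686 after Benjamini-Hochberg adjustment over 3 comparisons). That difference was -0.21 without MS_E replicate 1 or without PLA_E replicate 2, and -0.76 without MS_E replicate 2. After therapy it was 4.63 ± 0.81 (n = 8) and before therapy 5.41 ± 0.24 (n = 2), a difference of -0.79 (exact permutation test, p = 0.267, adjusted 0.686). Along the division the ratio was lower at 34 days than at 1 h in each place. On the side with more miR-1-3p it was 3.96 against 4.02 under mechanical stimulation and 3.61 against 4.11 under placebo, and on the other side 4.92 against 5.67 and 5.06 against 5.67. The first of these differences lay within counting error. The 95% Wilson interval of the 3p share was 93.0 to 94.8% in MS_A replicate 2 and 93.1 to 95.1% in MS_E replicate 2. A further exact permutation test moved libraries only within the sides, and it was added after these values were seen. For time this exact two-sided permutation test gave p = 0.0556, the smallest that its 36 arrangements allow. It could not fall under 0.05, and the values that prompted it already fixed its result, so it cannot decide about time. The exact permutation test within the sides gave p = 0.12 for after against before therapy and p = 1.0 for stimulation against placebo. None of these values was adjusted. Without the restriction to sides, the exact permutation test can reach 0.0286 with 70 arrangements of 4 against 4 libraries. With 45 arrangements of 8 against 2 it can reach 0.0222.

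For the levels, a miRNA was called where its unadjusted p was under 0.05 and its change over 2-fold, the thresholds the study used, in edgeR's quasi-likelihood test fitted on all 10 libraries. Neither arm was called in any of the 12 comparisons, and with edgeR or limma-voom the adjusted p fell under 0.05 for 0 of the 359 miRNAs. At an unadjusted p under 0.05, edgeR gave 2 to 27 and limma-voom 1 to 22 miRNAs a comparison, while DESeq2 gave up to 8 with an adjusted p under 0.05, neither arm of miR-140 among them. Against CIA_B, the calls over all 359 miRNAs came to 6.41% for MS_E, 0.557% for PLA_E, 1.11% for MS_A and 6.96% for PLA_A, the background beside the 0 of 2 arms called. These comparisons share the CIA_B libraries, 1 of them the shallowest of the study.

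Against CIA_B, the fitted log2 fold change of miR-140-3p was -0.12 for MS_E, -0.010 for PLA_E, -0.35 for MS_A and 0.016 for PLA_A. Each of these 4 values changed sign when 1 library was left out: without CIA_B replicate 2 they were 0.25, 0.36 and 0.022 for MS_E, PLA_E and MS_A, and without CIA_B replicate 1 the value for PLA_A was -0.38. The 95% interval for MS_A ran from -1.28 to 0.59, so a 2-fold rise lay outside it and a 2-fold fall did not. For miR-140-5p the values were 0.54 in MS_E (95% interval -1.18 to 2.27), 0.70 in PLA_E (-1.03 to 2.42), 0.66 in MS_A (-1.07 to 2.38) and 1.37 in PLA_A (-0.39 to 3.12). With a term for the side of the miR-1-3p division these values were 0.26, 0.37, 0.45 and 0.97, and with scaling by library size alone 0.75, 1.15, 0.71 and 1.77. All are above 0 with every library kept. Without MS_E replicate 2 the value for MS_E was -0.14, and without PLA_E replicate 1 that for PLA_E was -0.20. The largest of the first 4 values, PLA_A, did not pass (SE 0.78, edgeR's quasi-likelihood test, adjusted p = 0.584 by Benjamini-Hochberg). It rested on 1 library: without PLA_A replicate 1 the log2 fold change was 0.088, and without PLA_A replicate 2 it was 1.92 and passed the thresholds of the study (edgeR, unadjusted p = 0.0384, adjusted p = 0.590). In each case PLA_A is then a single library, assumed to vary like the other groups, so that p has no replicate of PLA_A behind it. Both MS_A libraries lay above both CIA_B libraries for miR-140-5p, as did those of 13.9% of all miRNAs tested.

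The therapies were then set against each other at each time, where 3.9% of all miRNAs were called at 1 h and 1.95% at 34 days. miR-140-3p differed between MS_E and PLA_E by -0.11 (95% interval -1.04 to 0.82) and between MS_A and PLA_A by -0.36 (-1.30 to 0.57) on the log2 scale. The former was 0.10 without MS_E replicate 2, -0.43 without MS_E replicate 1 and -0.44 with scaling by library size alone. The latter was -0.076 without PLA_A replicate 1 and -0.75 with scaling by library size alone. miR-140-5p differed by -0.15 (-1.84 to 1.53) at 1 h and by -0.71 (-2.41 to 0.99) at 34 days. Neither sign held without each single library in turn. The value at 1 h was 0.74 without PLA_E replicate 1 and 0.22 without MS_E replicate 1, and the value at 34 days was 0.57 without PLA_A replicate 1.

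Between 1 h and 34 days, 3.9% of all miRNAs were called under mechanical stimulation and 2.79% under placebo. miR-140-3p differed by -0.23 (95% interval -1.16 to 0.71) and by 0.026 (-0.91 to 0.96), and miR-140-5p by 0.11 (-1.57 to 1.8) and by 0.67 (-1.03 to 2.37) on the log2 scale. None of these intervals excludes 0. For miR-140-3p the first value turned to 0.070 without MS_E replicate 1 and the second to -0.24 without PLA_A replicate 1. For miR-140-5p the first value turned to -0.32 without MS_A replicate 2 and to -0.29 without MS_E replicate 1, and the second was -0.58 without PLA_A replicate 1 and 1.56 without PLA_E replicate 1.

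The pooled comparisons gave no call of either arm. All therapy groups against CIA_B (4.18% of all miRNAs called) gave -0.12 (-0.85 to 0.62) for miR-140-3p and 0.82 (-0.64 to 2.27) for miR-140-5p. Mechanical stimulation against placebo (3.34% called) gave -0.24 (-0.90 to 0.42) for miR-140-3p and -0.43 (-1.63 to 0.77) for miR-140-5p. For miR-140-3p the latter value ranged from -0.40 to -0.049 when single libraries were left out (the lowest without MS_E replicate 1, the highest without PLA_A replicate 1), and it was -0.60 (SE 0.39) with scaling by library size alone. In other pooled comparisons the sign of miR-140-3p turned. Without CIA_B replicate 2, therapy against CIA_B gave 0.25, and without MS_E replicate 1, 34 days against 1 h gave 0.034 and the interaction 0.073. For miR-140-5p, stimulation against placebo was -0.73 with scaling by library size alone, and signs also turned without single libraries. Stimulation against placebo gave 0.24 without PLA_A replicate 1 and 0.024 without PLA_E replicate 1, and 34 days against 1 h gave -0.24 without PLA_A replicate 1. For 34 days against 1 h (4.74% called) the values were -0.099 (-0.76 to 0.56) for miR-140-3p and 0.39 (-0.81 to 1.59) for miR-140-5p. The interaction of therapy and time (3.34% called) was -0.25 (-1.57 to 1.07) for miR-140-3p and -0.55 (-2.96 to 1.85) for miR-140-5p, the latter turning to 0.66 without PLA_A replicate 1, 0.15 without MS_E replicate 2 and 0.075 without PLA_E replicate 2. With a term for the side of the miR-1-3p division in the fit, miR-140-5p gave 0.51 (SE 0.44) for therapy against CIA_B, -0.31 (SE 0.37) for stimulation against placebo, 0.39 (SE 0.37) for time and -0.42 (SE 0.74) for the interaction. miR-140-3p gave -0.097, -0.26, -0.086 and -0.27 in the same order, and neither arm passed the thresholds.

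**Figure D4:**
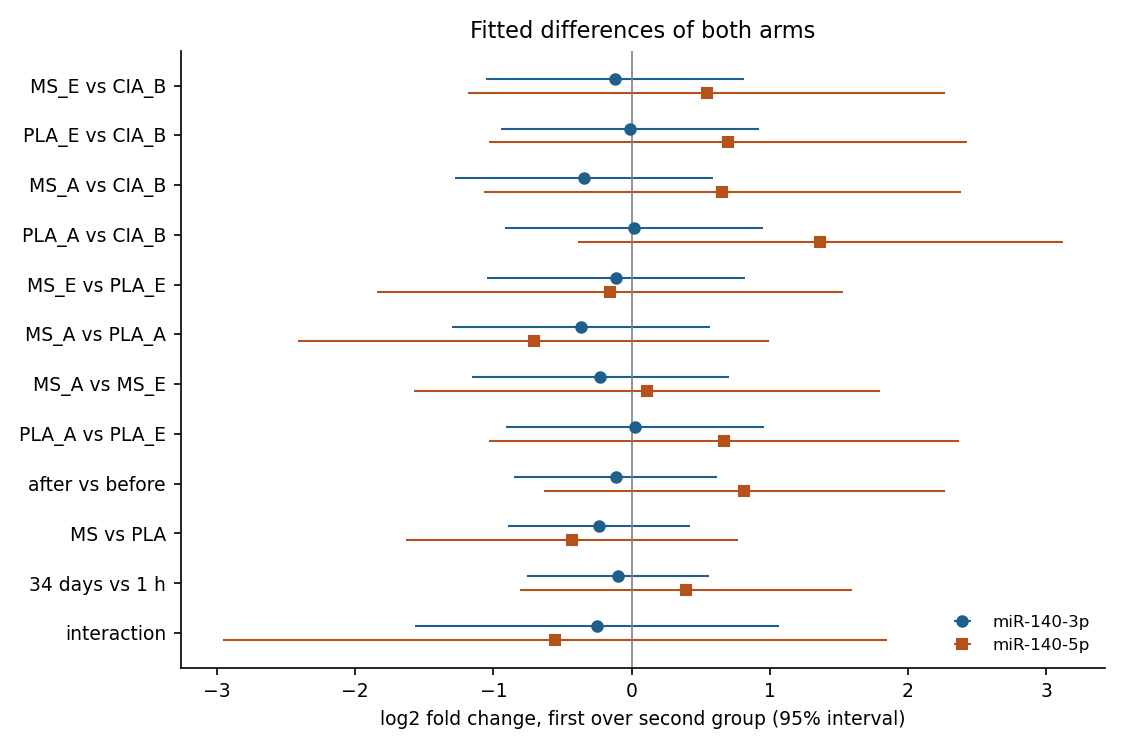
Fitted log2 fold changes of miR-140-3p (circles) and miR-140-5p (squares) in the 12 comparisons, with 95% intervals from edgeR's quasi-likelihood fit. Every interval includes 0, and in each comparison that of miR-140-5p is wider than that of miR-140-3p, the widest being its interaction at -2.96 to 1.85.

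miR-140-5p also differed between the libraries of a group. The library with more miR-1-3p exceeded its partner by 1.16 on the log2 scale in MS_E, 1.45 in PLA_E, 0.67 in MS_A and 1.97 in PLA_A, and lay 0.27 lower in CIA_B (-0.27), where the counts were fewest. A level higher with miR-1-3p in 4 or 5 groups was seen for 34.0% of the 359 miRNAs, and by its mean difference of 1.00 miR-140-5p ranked 56 among them all. miR-140-3p was lower in the library with more miR-1-3p in 4 groups, with differences of -0.66, -0.48, -0.095 and -0.29 in CIA_B, MS_E, PLA_E and MS_A and 0.52 in PLA_A, and 30.9% of all miRNAs were lower there in 4 or 5 groups. In a bulk sample, fewer cells of a type and less RNA per cell cannot be told apart.

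Set side by side with the CIA_B library of the same side, 1 library against 1 and therefore without an estimate of error, miR-140-5p among the libraries with more miR-1-3p was 2.33-fold in MS_E, 2.74-fold in PLA_E, 2.24-fold in MS_A and 4.81-fold in PLA_A. All of these are taken against the 10 reads of CIA_B replicate 1. Among the libraries with less miR-1-3p, where CIA_B replicate 2 held 74 reads of this arm, the same folds were 0.823, 0.786, 1.11 and 0.972. Folds above 1 thus stood in 4 of 4 places on the first side and in 1 of 4 on the second, a difference that was not tested with 1 library in each place. miR-140-3p gave 0.994, 1.24, 0.916 and 1.54 on the first side and 0.873, 0.837, 0.705 and 0.677 on the second.

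Leukocyte miRNAs were set beside these libraries. The summed level of the leukocyte miRNAs miR-142-3p, miR-142-5p, miR-150-5p and miR-223-3p, all 4 of which were tested, was 1783 cpm in MS_E replicate 2, 1630 in PLA_E replicate 1, 1788 in MS_A replicate 2 and 12756 in PLA_A replicate 1. In the other 6 libraries it ranged from 585 to 1154 cpm, with 688 cpm in CIA_B replicate 1. The 4 libraries with the highest sum were the 4 with at least 19.4 cpm of miR-140-5p, the others holding at most 12.1 cpm. Only 1 of the 4 leukocyte miRNAs, the lymphocyte miRNA miR-150-5p, was higher in all 4 libraries, at 1156 to 6222 cpm against 256 to 572 cpm in the others. The remaining members overlapped between these libraries and the others: miR-142-3p at 22.8 to 636 against 4.33 to 30.8 cpm, miR-142-5p at 226 to 5855 against 101 to 551 cpm and miR-223-3p at 43.3 to 70.1 against 10.4 to 64.7 cpm. These libraries were picked after their values were seen, and 28 of the 359 miRNAs (7.80%) likewise lay higher in all 4 than in each of the other 6. The part of leukocytes in the level of miR-140-5p was not tested. Erythroid miRNAs summed to 17.4 to 88.6 cpm and epidermal ones to 28.6 to 186 cpm, without being highest in these 4 libraries.

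**Figure D5:**
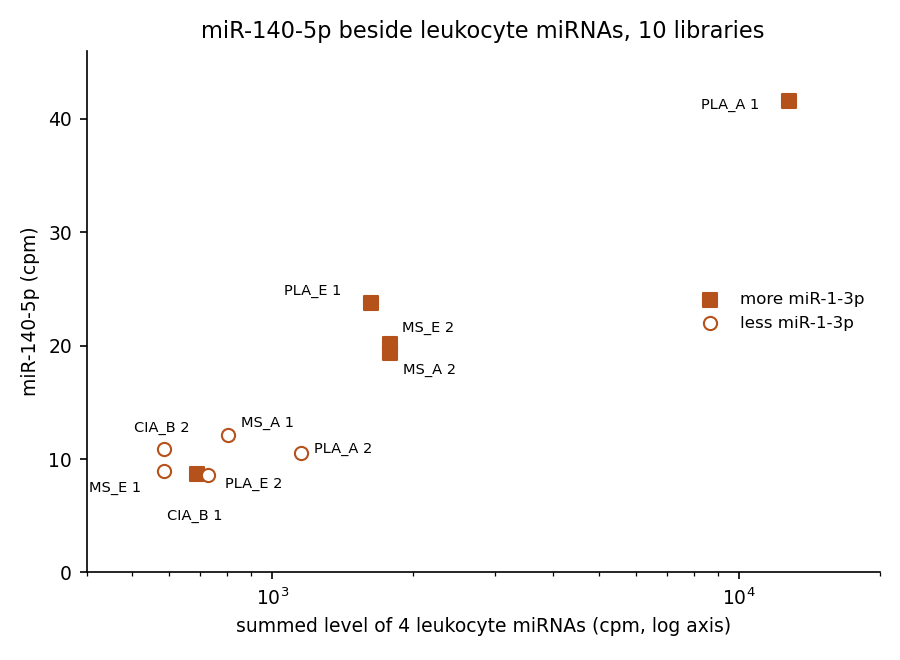
Level of miR-140-5p (cpm) against the summed level of 4 leukocyte miRNAs (cpm, log axis) in the 10 libraries, filled squares for the library of each group with more miR-1-3p and open circles for the other. The 4 libraries with 1630 cpm or more of leukocyte miRNAs hold 19.4 to 41.6 cpm of miR-140-5p, of the 4 summed miRNAs only miR-150-5p is higher in each of them than in all others, and CIA_B replicate 1 lies with the other libraries in both.

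Beside miR-140, 15 of 16 further miRNAs known from chondrocytes or cartilage matrix were listed and tested. At 1 h of mechanical stimulation 2 of the 15 were called higher than in CIA_B, miR-675-3p and miR-675-5p, the products of the H19 transcript, which in chondrocytes are linked to type II collagen. They are arms of 1 hairpin, and 6.41% of all miRNAs were called there. miR-675-3p measured 32.4 and 43.6 cpm in MS_E and 11.3 and 11.3 in CIA_B, a log2 fold change of 1.72 (SE 0.45, edgeR's quasi-likelihood test, adjusted p = 0.373). miR-675-5p measured 4.32 and 6.40 cpm in MS_E and 0.87 and 1.18 in CIA_B, where it rested on few reads. In PLA_A 1 of the 15 was called higher than in CIA_B, miR-29b-3p (log2 fold change 1.70, SE 0.66, edgeR, adjusted p = 0.543), a miRNA that represses collagen transcripts, a share near the 6.96% called over all miRNAs. In PLA_E and MS_A 0 of the 15 were called against CIA_B.

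The median log2 fold change of the 15 was 0.62 in MS_E, 0.38 in PLA_E, 0.26 in MS_A and 0.46 in PLA_A against CIA_B, with 11, 14, 11 and 12 of 15 above 0. Over all 359 miRNAs the medians of these comparisons were 0.058, 0.066, 0.097 and 0.11. Of the marker lists of other cells, those of epidermis, leukocytes and erythroid cells lay mostly further above 0, in the same order of comparisons: the 4 epidermal miRNAs with medians of 2.82, 1.33, 1.38 and 1.39, the 4 leukocyte ones with 1.30, 0.97, 1.27 and 3.62, and the 3 erythroid ones with 0.89, 0.28, 1.23 and 1.50. Of these values only that of the erythroid miRNAs in PLA_E lay below the cartilage median. Some members rested on near-0 counts or on 1 library. In MS_E miR-200b-3p held 34.1 and 1.72 cpm and miR-200c-3p 14.7 and 3.90, each over 0 and 0.147 cpm in CIA_B. In PLA_A miR-142-3p held 636 and 30.8 cpm and miR-142-5p 5855 and 551. Others were even, such as miR-205 at 69.2 and 59.0 cpm in MS_E and miR-223-3p at 43.3 and 45.9 in PLA_A. The medians of the other lists were -0.49, -0.076, 0.20 and 0.31 for endothelium, -0.29, 0.13, -0.082 and 0.019 for smooth muscle, 0.057, -0.012, -0.16 and 0.00051 for fibroblasts, and -0.043, -0.0037, 0.26 and 0.073 for skeletal muscle. The part of other cells in the levels of the cartilage list was not tested. The other calls in the list were again arms of miR-675, and none had an adjusted p (edgeR, Benjamini-Hochberg) under 0.681. miR-675-3p differed by 1.15 on the log2 scale between MS_E and PLA_E (3.9% of all miRNAs called) and by -1.71 in the interaction (3.34%). Between MS_A and MS_E miR-675-3p differed by -1.91 and miR-675-5p by -1.64 (3.9%), and between 34 days and 1 h by -1.06 and -1.18 (4.74%). In 4 or 5 groups, 4 of the 15 (26.7%) were higher in the library with more miR-1-3p, below the 34.0% over all miRNAs. The median log2 difference of the list was -0.20. miR-455-3p, miR-675-3p and miR-145-5p were higher there in 5 of 5 groups (miR-675-3p in CIA_B only with the 0.5 counts added before taking logs), and 5 of the 15, miR-9a-5p, miR-27b-3p, miR-146a-5p, miR-22-3p and miR-92a-3p, in 0 or 1.

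The miRNAs most like each arm were sought by the smallest SD over the 10 libraries of the log2 ratio to that arm. For miR-140-3p these were let-7i-5p (SD 0.23), miR-339-3p (0.25), let-7e-3p (0.27), let-7e-5p (0.28) and miR-652-3p (0.29), where the median over the 358 other miRNAs was 0.73. Its own 5p arm came only at place 201, with 0.78. For miR-140-5p they were miR-26b-3p (0.34), miR-29a-5p (0.35), miR-345-5p (0.38), miR-497-5p (0.38) and miR-324-5p (0.39), against a median of 1.01. That these share the libraries in which miR-140-5p is high follows from how they were chosen. miR-26b-3p, the closest, measured 16.7, 12.6, 22.6 and 24.2 cpm in MS_E replicate 2, PLA_E replicate 1, MS_A replicate 2 and PLA_A replicate 1, and 6.06 cpm in CIA_B replicate 1. The points of such a comparison share library, depth and the division by miR-1-3p, and the 3p arm of the hairpin came at place 87 among those compared with miR-140-5p.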

How the data were processed

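Small RNA libraries (TruSeq kit, Illumina HiSeq) were base-called with CASAVA 1.8 per the submitters' notes. The authors discarded reads under 18 bases, mapped them to rn4 and to the rat miRNAs of miRBase with miRDeep2, and deposited raw read counts per mature miRNA and precursor for each library. For the 35 miRNAs with several precursors the largest count was kept; miR-140 has 1. A further deposited table, whose 20 value columns carry no sample's label, was left out. From the counts, TMM-scaled cpm and edgeR 4.0.16 quasi-likelihood tests (limma 3.58.1, R 4.3.3; Benjamini-Hochberg over the 359 miRNAs with 1 cpm or more in at least 5 of 10 libraries) were computed with a mean per group. For SDs on the log2 scale 0.5 counts were added. Calls used unadjusted p under 0.05 and over 2-fold, as in the methods of the study, whose limma-voom was run as an alternative, as was DESeq2 1.42.0. Intervals are at 95%. Code was tested on simulated data. Named miRNAs were both arms, miRNAs sharing a seed, the tested cartilage list, and the 5 most similar to each arm. The members, lists and tests were chosen with earlier results of these data known. Sequences came from the RefSeq tables (645 of 723 names matched).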

Additional observations from a re-analysis of the deposited data

How the results depend on the processing

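With 2 libraries a group, values near 0 turned sign easily; no alternative but 1 gave a call. That exception, miR-140-5p in PLA_A against CIA_B without PLA_A replicate 2, stands in the report and rests on an arm of 1 library, assumed to vary like the other groups. Leaving out 1 library at a time, log2 differences ranged as follows. For miR-140-3p against CIA_B the ranges were -0.46 to 0.25 in MS_E, -0.38 to 0.36 in PLA_E, -0.74 to 0.022 in MS_A, -0.38 to 0.39 in PLA_A and -0.49 to 0.25 for all therapies. They were -0.43 to 0.10 for MS_E against PLA_E, -0.52 to -0.076 for MS_A against PLA_A, -0.43 to 0.070 for MS_A against MS_E, -0.24 to 0.16 for PLA_A against PLA_E, -0.27 to 0.034 for 34 days against 1 h and -0.45 to 0.073 for the interaction. For miR-140-5p against CIA_B they were -0.14 (without MS_E replicate 2) to 0.92 in MS_E, -0.20 (without PLA_E replicate 1) to 1.24 in PLA_E, 0.20 (without MS_A replicate 2) to 0.97 in MS_A, 0.088 to 1.92 in PLA_A and 0.49 to 1.00 for all therapies. They were -0.84 to 0.74 for MS_E against PLA_E, -1.28 to 0.57 for MS_A against PLA_A, -0.32 to 0.81 for MS_A against MS_E and -0.58 to 1.56 for PLA_A against PLA_E. They were -0.76 to 0.24 for mechanical stimulation against placebo, -0.24 to 0.85 for 34 days against 1 h and -1.44 to 0.66 for the interaction. The log2 arm ratio ranged from -0.31 (without MS_E replicate 1) to 0.38 (without PLA_E replicate 2) for mechanical stimulation against placebo and from -0.76 to -0.21 for 34 days against 1 h.

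Other settings turned the sign of 20 values, all but 1 of them of miR-140-3p; the cause was not tested. Keeping only miRNAs with a mean of 100 counts, which drops miR-140-5p, gave miR-140-3p 0.036 in MS_E, 0.055 in PLA_E and -0.077 in PLA_A against CIA_B, and -0.13 in PLA_A against PLA_E. Scaling by library size alone, which moved the median of all miRNAs by -0.32 to 0.35 over the 12 comparisons, gave miR-140-3p 0.31 in PLA_E against CIA_B and 0.018 for all therapies against CIA_B, and -0.036 for miR-140-5p in MS_A against MS_E. For miR-140-3p in PLA_A against CIA_B, DESeq2 gave -0.095, its size factors -0.094, no filter -0.063, summed precursors -0.036 and a fit of only the libraries compared -0.037. In PLA_A against PLA_E the same settings gave -0.058, -0.058, -0.040, -0.021 and -0.060. In PLA_E against CIA_B limma-voom gave 0.021 and a term for the side of the miR-1-3p division 0.0089. With a replicate block, miR-140-3p in PLA_A against CIA_B was -0.0056 and no call changed. Between groups, the difference of replicate 1 from replicate 2 over all miRNAs correlated at -0.54 to 0.59. The library with more miR-1-3p is replicate 1 in some groups and replicate 2 in others. These correlations therefore cannot show whether the numbers pair libraries. By Pearson correlation, 0 of the 5 miRNAs most like miR-140-3p and 2 of the 5 most like miR-140-5p stayed the same.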
